A study of Mus musculus with 6 samples.

Results

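The 10 genes described here encode the transcription factors that mark surface ectoderm and the border of the neural plate in the vertebrate embryo: Tfap2a, Tfap2c, Grhl2, Grhl3, Dlx3, Gata2, Gata3, Msx1, Msx2 and Trp63. They were taken by name, but with earlier results of these data known, so their counts below describe the libraries. Each gene is the sum of all its annotated transcripts. They are 10 of the 52609 genes with at least 1 matched transcript in 6 RNA-seq libraries from epiblast stem cells of the mouse, pluripotent cultures that stem from dissected epiblast and resemble it at a stage close to germ layer formation. Of the 10 genes, 9 passed the filter on low counts, as did 15448 genes in all.

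The libraries form 2 groups of 3. Cells without Activin A received FGF2 at 10 ng/mL, the Wnt secretion inhibitor IWP2 at 5 µM and SB431542 at 2 µM, which inhibits the type I receptors of TGF-beta, Nodal and Activin. Cells with Activin A received the same 3 agents and Activin A at 20 ng/mL, so the receptor inhibitor and the Wnt inhibitor were present in both groups. Some labels conflict. For replicate 1 without Activin A, the title and genotype label say that Activin A was left out, but the growth factor label lists it, as does the treatment text of all 6 libraries. The series describes 2 lines with 3 replicates each. If each group is a line of its own, a difference between lines cannot be told apart from one of Activin A. Separate cultures are not stated, so the p-values measure the spread between these libraries, which may be technical.

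The embryonic ectoderm divides into neural plate and surface ectoderm, and the strip between them, the plate border, gives rise to neural crest and placodes. BMP signalling is known to favour surface ectoderm, and the AP-2 factors (Tfap2), Gata2, Gata3, Dlx3 and the Msx factors are among the first genes that mark that side in vertebrate embryos. Grainyhead-like factors (Grhl2, Grhl3) activate genes of epithelial junctions, and Trp63 is required for a stratified epidermis. Several of these factors also act in other lineages. Tfap2c and Gata3 work in trophoblast, Tfap2c in primordial germ cells, and Gata2 in blood and endothelium.

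The libraries held between 9946521 and 16350923 estimated reads, the lowest with Activin A, replicate 3. That library also stood apart from the other 2 of its group on the second principal component, at 28.47, where the others stood at -10.71 and -19.36, and the first component, with 58.1% of the variance, separated the groups. Of 11 epiblast stem cell markers, all were measured in both groups. Their summed TPM was 330 to 354 without Activin A and 742 to 777 with Activin A. Of these markers 10 were lower without Activin A and 1, Sox2, was higher. Of 15 fibroblast markers, which feeder cells would bring if any were present, all were tested, 3 were higher, 7 lower and 5 did not pass. Their summed TPM was 301 to 320 without Activin A and 187 to 220 with Activin A, although more of the called markers were lower than higher. Acta2, a smooth muscle actin, averaged 407 ± 12.1 CPM without Activin A and 168 ± 5.47 CPM with Activin A, whereas Col3a1, a fibrillar collagen, averaged 19.9 ± 0.358 CPM without Activin A and 46.2 ± 1.22 CPM with Activin A. The part of feeder RNA or of any other cell type in the results below was not tested. In bulk RNA, fewer cells of a type and less RNA per cell cannot be told apart.

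The surface ectoderm and border factors did not move together. Gata2, Msx2, Gata3 and Tfap2c were higher without Activin A, whereas Grhl3 and Grhl2 were lower. Dlx3, Tfap2a and Msx1 did not pass the test, and Trp63 had too few reads to be tested. The test was edgeR's quasi-likelihood test with Benjamini-Hochberg adjustment over all 15448 genes, at an adjusted p below 0.05. By it 4 of the 9 tested factors were higher and 2 lower, against a background of 14.0% higher and 15.2% lower among all genes tested, or 29.2% in either direction. The CPM values (TMM-normalised counts scaled to library size) of the 2 groups did not overlap for 7 of the 9, against 42.9% of all genes tested. An alternative added after the data were seen left out both doubted libraries, without Activin A replicate 1 and with Activin A replicate 3. It called 6 of the 8 factors tested there, beside 4988 of all 15600 genes tested there.

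**Figure D1:**
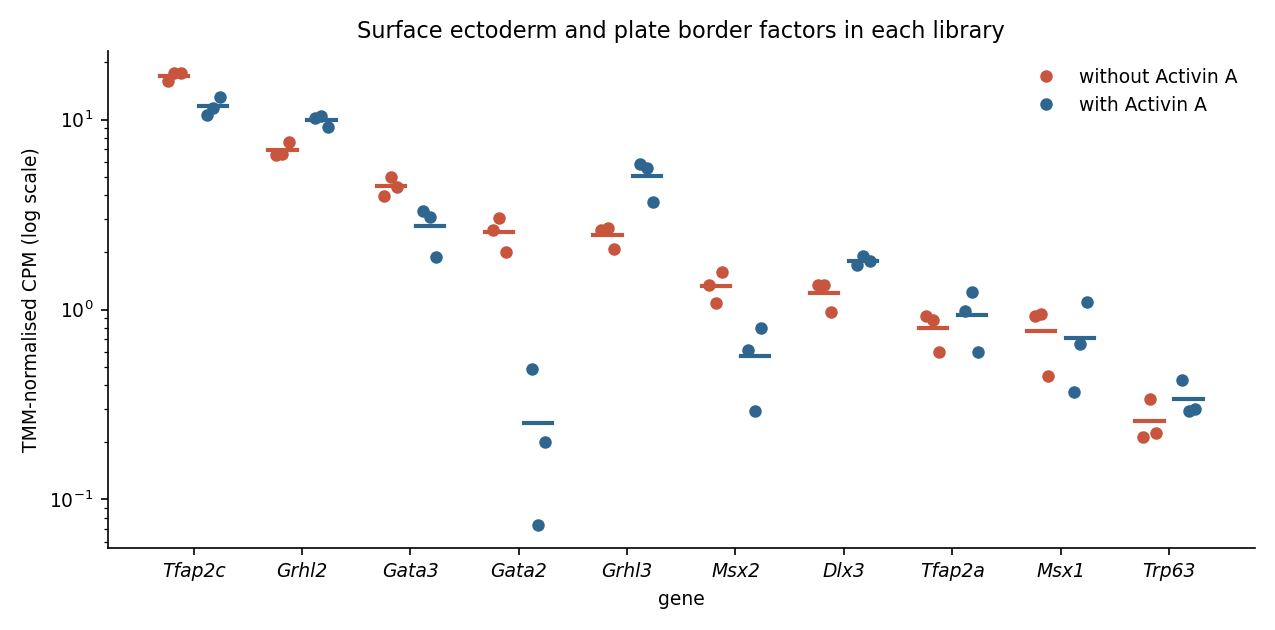
CPM of each factor (log scale) in the 3 libraries without Activin A (red) and the 3 with Activin A (blue), with bars at the group means. The widest gap between the groups is that of Gata2, at 2.02 to 3.03 CPM without Activin A and 0.0732 to 0.489 CPM with Activin A, and Trp63 is the lowest gene without Activin A.

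All of these factors were expressed at low levels. On the TPM scale, which corrects for transcript length and so allows genes to be compared, the genes tested had a median of 7.94 TPM and a lower quartile of 1.83 TPM. The highest factor without Activin A, Tfap2c, averaged 4.92 ± 0.464 TPM (SD, n = 3). No factor was silent, if silence is set at 3 or fewer reads in every library. Trp63 alone had 10 or fewer reads in every library.

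The RefSeq promoters of Gata2, Gata3 and Grhl3 are shown because Gata2 and Grhl3 were the factors with the largest changes in either direction, and Gata3 is the other GATA factor. Each is the 250 bases before the start site on build GRCm38.p6, 5′ to 3′ on the gene's strand. Gata2 has an upstream and a downstream first exon, and the window shown lies before the upstream one, at chr6:88193641-88193890 on the plus strand. The Gata3 window is chr2:9878601-9878850 on the minus strand, and the Grhl3 window is chr4:135573633-135573882 on the minus strand. Capitals mark GGCGCC, the letters of a BMP SMAD element, or GCCNNNGGC, those of a TFAP2 site.
Gata2: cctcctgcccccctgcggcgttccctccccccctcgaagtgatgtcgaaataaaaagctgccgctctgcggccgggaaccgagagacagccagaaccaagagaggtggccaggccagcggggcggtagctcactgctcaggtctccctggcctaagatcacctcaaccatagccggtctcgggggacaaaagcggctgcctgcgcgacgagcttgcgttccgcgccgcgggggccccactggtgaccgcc
Gata3: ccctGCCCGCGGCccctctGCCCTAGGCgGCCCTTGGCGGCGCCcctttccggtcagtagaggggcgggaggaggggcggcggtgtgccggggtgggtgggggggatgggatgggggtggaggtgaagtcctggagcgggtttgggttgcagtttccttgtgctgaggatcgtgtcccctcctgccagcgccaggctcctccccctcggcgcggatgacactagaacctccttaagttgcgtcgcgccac
Grhl3: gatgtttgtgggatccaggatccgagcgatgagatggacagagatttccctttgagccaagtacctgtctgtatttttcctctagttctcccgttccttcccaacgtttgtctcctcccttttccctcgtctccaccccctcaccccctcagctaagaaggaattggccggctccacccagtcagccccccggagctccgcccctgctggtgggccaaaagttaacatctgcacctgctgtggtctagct
The Gata3 window held 1 match to GGCGCC and 3 to GCCNNNGGC, which did not overlap one another, and the Grhl3 window and the upstream Gata2 window held 0 of either. The window before the downstream RefSeq start of Gata2 (chr6:88198414-88198663, plus strand), which is not printed, held 1 match to each. That RefSeq start lies 330 bases after the start annotated for the transcripts of the downstream first exon, so this window follows their start. Both motifs read the same on both strands. Of all 32851 RefSeq promoter windows of this length, 9.59% held GGCGCC and 13.7% held GCCNNNGGC. AACCGGTT, the letters of a GRHL site, occurred in 0.116% of windows, and AGATAA, those of a GATA site searched on both strands, in 9.99%. Neither was found in these 4 windows. A match to letters is a description of the sequence and not of binding.

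Gata2, a zinc finger factor of non-neural ectoderm and blood progenitors, had the largest rise of the factors. The gene (ENSMUSG00000015053.14, chr6:88193891-88207032, plus strand) had 37, 45 and 27 estimated reads in the libraries without Activin A, replicates 1 to 3, against 8, 1 and 2 reads with Activin A. All libraries without Activin A lay above all libraries with it, even before scaling for depth. The CPM averaged 2.56 ± 0.510 without Activin A and 0.254 ± 0.213 with Activin A (SD, n = 3 each). The log2 fold change was 3.19 ± 0.40 (SE), with an adjusted p of 2.95e-05 by edgeR's quasi-likelihood test. Summed over the libraries, 109 reads without Activin A stood against 11 with Activin A, a ratio of 9.38 with a 95% exact interval of 5.04 to 19.3 that covers counting error only. The 8 reads of replicate 1 were most of the signal with Activin A, and without that library the log2 fold change was 4.24. Gata2 passed under every setting tried.

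Most Gata2 reads were assigned to the transcript that begins at the upstream first exon, whose promoter is printed above. This transcript, Gata2-202, held 30.9, 35.2 and 20.1 estimated reads without Activin A, against 7.5, 0 and 1 with Activin A. Transcripts of the downstream first exon held 1.4 reads in all 3 libraries without Activin A and 1.0 in those with Activin A. A further 3.7, 8.8 and 6.9 reads without Activin A were assigned to Gata2-204, an annotated retained intron, against 0.5, 1 and 0 with Activin A. Gata2-205, also a retained intron, held 2.1 reads in all without Activin A and 0 with Activin A, and neither of these records begins at a first exon. The division of reads among transcripts is an estimate. The counts from the downstream exon are too few to compare between groups.

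Gata3, the related factor of surface ectoderm and trophoblast, was higher without Activin A as well, by a smaller margin. The gene (ENSMUSG00000015619.10, chr2:9857078-9890034, minus strand) had 3.97, 4.99 and 4.41 CPM without Activin A, against 3.30, 3.07 and 1.90 CPM with Activin A. The groups did not overlap, but the lowest library without Activin A stood close to the highest with Activin A. The log2 fold change was 0.65 ± 0.20 (SE), with an adjusted p of 0.0219 by edgeR's quasi-likelihood test. The call did not hold without the libraries lacking Activin A, replicate 2 (adjusted p = 0.0991) or replicate 3 (adjusted p = 0.0570), nor in DESeq2 (adjusted p = 0.0694). Gm13256 runs antisense across Gata3 exons and 9230102O04Rik overlaps them on the same strand, and use of strand in the counting is not given in the sources used here.

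The direction for Gata3 depended on the scale. Its summed TPM was 0.828, 4.91 and 1.20 without Activin A, and 2.45, 9.47 and 1.02 with Activin A. In replicate 2 with Activin A, 8.91 of the 9.47 TPM came from 3.8 reads on Gata3-205, a transcript of 243 bases, for which 1 read is worth far more than on the long transcript. Over transcripts of at least 1000 bases Gata3 had 0.828, 1.06 and 0.876 TPM without Activin A, against 0.612, 0.557 and 0.361 TPM with Activin A. This limit on length was set after the data were seen, so it is a description and no independent check. On that scale every library without Activin A was above every library with it. Fits that use transcript length gave a log2 fold change of the opposite sign, -0.84 with a length offset and -0.54 on log2(TPM + 1), and neither passed.

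**Figure D2:**
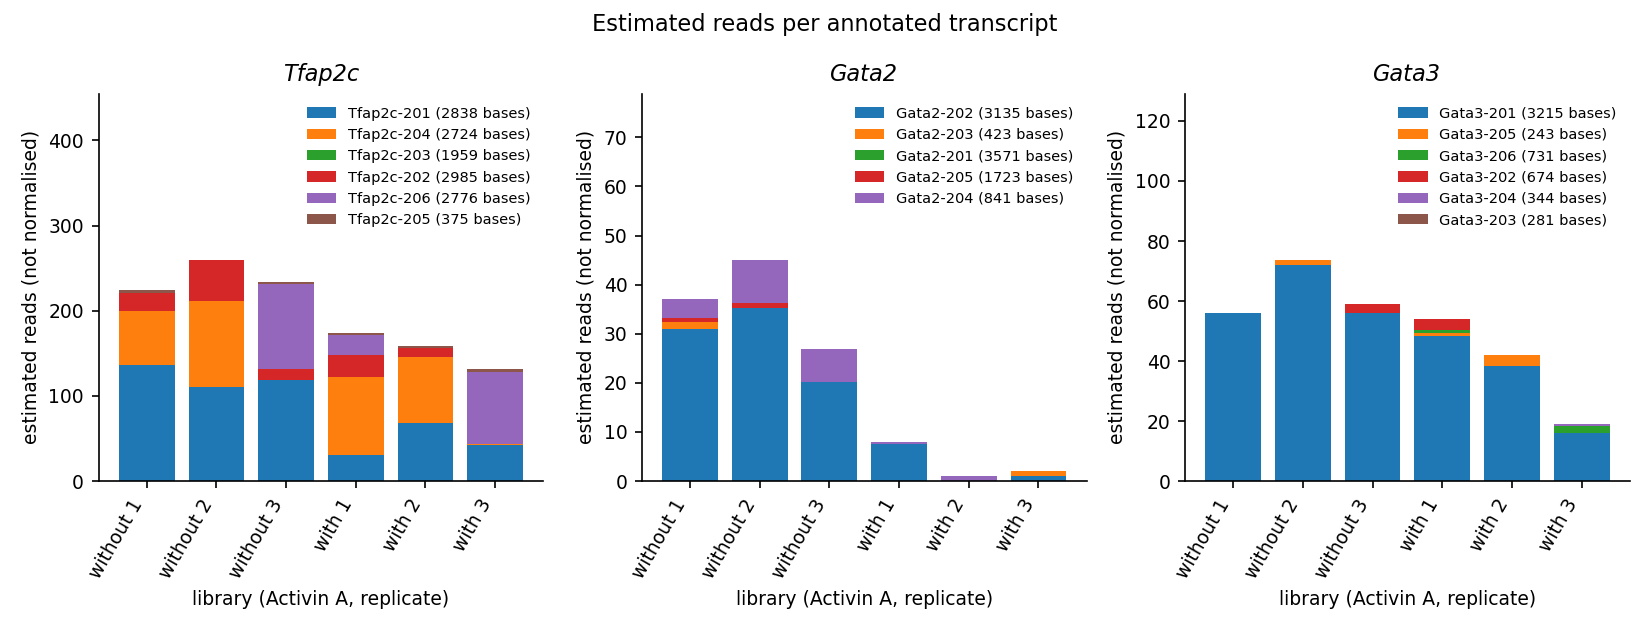
Estimated reads, not normalised, assigned to each annotated transcript of Tfap2c, Gata2 and Gata3 in the 6 libraries, without Activin A at left of each panel. Tfap2c-201 held more reads in each library without Activin A (110.3 to 136.3) than in any with it (30.8 to 68.1), Gata2 reads were mostly on Gata2-202, and Gata3 reads mostly on Gata3-201.

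Msx2, a homeobox factor that BMP signalling is known to induce, was also higher without Activin A. The gene (ENSMUSG00000021469.9, chr13:53466884-53473074, minus strand) had 1.35, 1.08 and 1.57 CPM without Activin A, against 0.611, 0.293 and 0.798 CPM with Activin A. The reads behind these values were 19, 16.5 and 21 without Activin A, against 10, 4 and 8 with Activin A. The groups did not overlap, and the log2 fold change was 1.25 ± 0.36 (SE) with an adjusted p of 0.0173 by edgeR's quasi-likelihood test. Leaving out any of 4 libraries ended the call: the adjusted p was 0.0578 without the library lacking Activin A, replicate 1, and 0.0824 without replicate 3 of that group. With replicate 1 of the Activin A group left out it was 0.0537, and with replicate 2 of that group left out it was 0.0901, where the log2 fold change was 0.94. DESeq2 gave an adjusted p of 0.0835.

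Msx1, the other Msx factor tested and likewise a gene of the plate border, did not pass. It (ENSMUSG00000048450.10, chr5:37820485-37824583, minus strand) had 13, 14 and 6 reads without Activin A, against 6, 9 and 11 with Activin A. The groups overlapped, at 0.771 ± 0.279 CPM without Activin A and 0.708 ± 0.368 CPM with Activin A. The log2 fold change was 0.24 ± 0.43 (SE) and the adjusted p 0.738 by edgeR's quasi-likelihood test. Whether Msx1 and Msx2 differ in response was not tested.

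Tfap2c, the AP-2 factor shared by early ectoderm, trophoblast and germ cell precursors, was the most abundant factor in cells without Activin A. The gene (ENSMUSG00000028640.11, chr2:172549593-172558622, plus strand) had 15.9, 17.5 and 17.5 CPM without Activin A, against 10.6, 11.6 and 13.2 CPM with Activin A. Every library without Activin A lay above every library with it. The means were 17.0 ± 0.943 CPM without Activin A and 11.8 ± 1.28 CPM with Activin A (SD, n = 3 each), a log2 fold change of 0.54 ± 0.10 (SE) with an adjusted p of 0.000772 by edgeR's quasi-likelihood test. The call held under each library left out, but not with a transcript length offset (0.27, adjusted p = 0.426) or on log2(TPM + 1) (0.25, adjusted p = 0.439). Transcript Tfap2c-205, of 375 bases, gave up to 2.32 TPM in a library from 4.4 reads or fewer.

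Of the Tfap2c transcripts, Tfap2c-201, which starts farthest upstream, held 364.8 reads in all without Activin A and 141.5 with Activin A. Tfap2c-202 also held more without Activin A, 83.0 reads in all against 36.7, but its libraries overlapped between the groups. Tfap2c-201 held 136.3, 110.3 and 118.2 reads without Activin A, or 60.8%, 42.4% and 50.5% of the gene's reads. With Activin A it held 30.8, 68.1 and 42.6 reads, or 17.7%, 43.1% and 32.2%. Its share overlapped between the groups, since replicate 2 with Activin A lay above replicate 2 without. Tfap2c-204 and Tfap2c-206, whose starts lie close together, took each other's place among libraries. Tfap2c-206 held 99.5 reads in replicate 3 without Activin A and 84.7 in replicate 3 with Activin A, where Tfap2c-204 held 0 reads without Activin A and 0.4 with Activin A. Their sum was 63.3, 100.7 and 99.5 reads without Activin A, against 115, 77.2 and 85.1 with Activin A, and these overlapped. Reads that fit several transcripts are divided by estimate, so the split among transcripts is less certain than the sum for the gene.

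Tfap2a, which with Tfap2c marks the surface ectoderm and plate border and is needed for neural crest, was close to the limit of detection and did not pass. It (ENSMUSG00000021359.16, chr13:40715302-40738376, minus strand) had 13, 13 and 8 reads without Activin A, against 16, 17 and 6 with Activin A. The log2 fold change was -0.27 ± 0.35 (SE) and the adjusted p 0.618 by edgeR's quasi-likelihood test. Antisense genes Gm26688, Gm47061 and Gm47067 overlap its exons, and 12.7% of its 31-base words occur in another gene, so part of its count may belong to a neighbour. The other AP-2 gene tested, Tfap2b, was lower, at 0.233 ± 0.143 CPM without Activin A and 1.83 ± 0.339 CPM with Activin A. Its log2 fold change was -2.88 ± 0.40 (SE) with an adjusted p of 8.17e-05 by edgeR's quasi-likelihood test, which rested on 5, 4.3 and 1 reads without Activin A, against 25, 23.9 and 21.9 with Activin A. It did not pass in the fits that use transcript length (adjusted p of 0.131 and 0.169). Over transcripts of at least 1000 bases, Tfap2c held 90.8% to 96.5% of the AP-2 TPM without Activin A and 83.1% to 87.4% with Activin A.

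Grhl3, a grainyhead-like factor required for closure of the neural tube and for the skin barrier in mice, had the largest fall of the factors. The gene (ENSMUSG00000037188.7, chr4:135541888-135573630, minus strand) has 1 annotated transcript, so no split among transcripts enters its value. It had 2.62, 2.70 and 2.09 CPM without Activin A, against 5.81, 5.56 and 3.69 CPM with Activin A. All libraries without Activin A lay below all libraries with it, and replicate 3 with Activin A, the shallowest library, was the closest to them. The log2 fold change was -1.04 ± 0.20 (SE), with an adjusted p of 0.00101 by edgeR's quasi-likelihood test. Grhl3 passed under every setting tried.

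Grhl2, which drives genes of epithelial junctions, was lower by a smaller margin. The gene (ENSMUSG00000022286.16, chr15:37233036-37363569, plus strand) had 6.52, 6.60 and 7.63 CPM without Activin A, against 10.1, 10.4 and 9.18 CPM with Activin A. The groups did not overlap, and the log2 fold change was -0.53 ± 0.11 (SE) with an adjusted p of 0.00301 by edgeR's quasi-likelihood test. The call held with each library left out and in DESeq2, but not with a transcript length offset (log2 fold change -0.52 ± 0.19, adjusted p = 0.115) or on log2(TPM + 1) (-0.32 ± 0.13, adjusted p = 0.187). With the offset the size of the change stayed close to that above, and its SE was larger. Gm16136 is antisense to part of it. The third family gene, Grhl1, did not pass, at 0.988 ± 0.217 CPM without Activin A and 1.13 ± 0.424 CPM with Activin A.

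Dlx3, a homeobox factor of surface ectoderm and placenta, lay apart between the groups but did not pass. It (ENSMUSG00000001510.8, chr11:95120119-95125296, plus strand) had 1.35, 1.35 and 0.972 CPM without Activin A, against 1.71, 1.90 and 1.80 CPM with Activin A. The log2 fold change was -0.55 ± 0.25 (SE) and the adjusted p 0.116 by edgeR's quasi-likelihood test. Its relative Dlx4 did fall, at 1.40 ± 0.293 CPM without Activin A and 2.75 ± 0.326 CPM with Activin A, a log2 fold change of -0.96 ± 0.23 (SE) with an adjusted p of 0.00623 by edgeR's quasi-likelihood test. Dlx5, with Tfap2d, was at 0 in all 6 libraries.

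Trp63, the p53 relative needed for the epidermis, was nearly silent. The gene (ENSMUSG00000022510.14, chr16:25683763-25892102, plus strand) had 3, 5 and 3 reads without Activin A, against 7, 4 and 3 with Activin A. Transcripts from the upstream start, which encode the TA forms, held 5.0 reads in all without Activin A and 6.3 with Activin A. Those from the internal start, which encode the ΔN forms of basal epidermis, held 6.0 reads without Activin A and 7.8 with Activin A. No difference was detectable at this depth. Of its relatives, Trp73 was lower, at 2.79 ± 0.114 CPM without Activin A and 8.05 ± 1.93 CPM with Activin A. Its log2 fold change was -1.55 ± 0.18 (SE) with an adjusted p of 1.26e-05 by edgeR's quasi-likelihood test. Trp53 did not pass, at 240 ± 6.91 CPM without Activin A and 224 ± 22.0 CPM with Activin A.

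**Figure D3:**
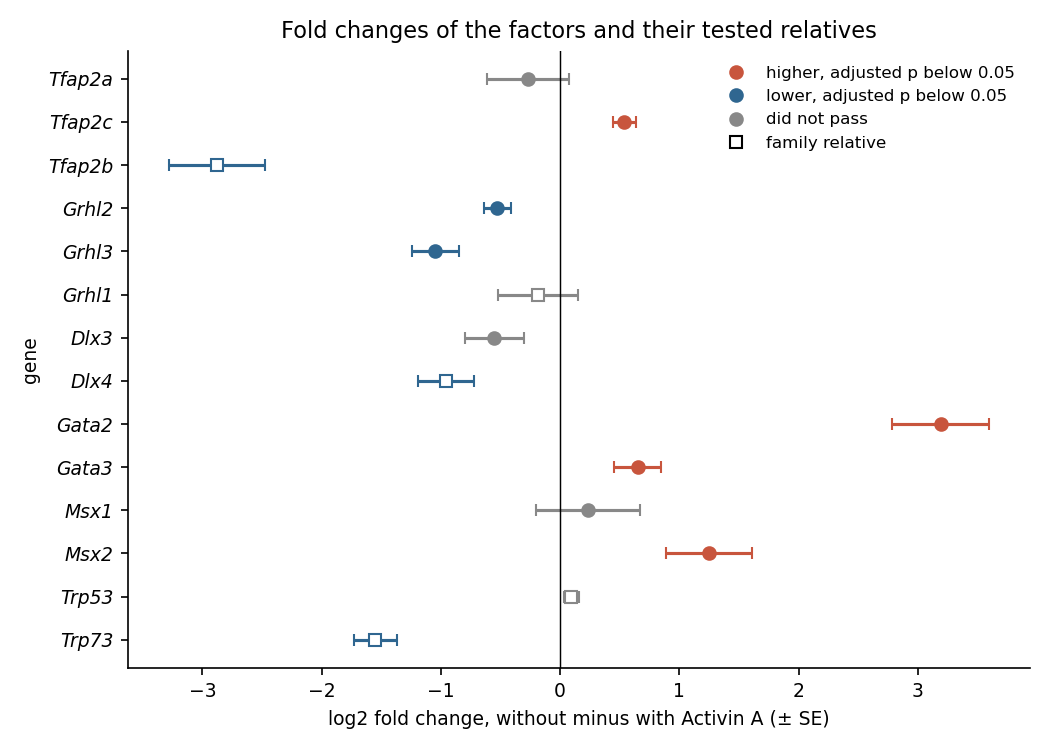
Log2 fold change, without minus with Activin A, of the 9 tested factors (filled circles) and their 5 tested relatives (open squares), with bars of 1 SE. Gata2 lies highest at 3.19 and Tfap2b lowest at -2.88, and each family except Gata holds both a called gene and one that did not pass.

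The order of the factors by level differed between the groups. Without Activin A the mean TPM ran from Tfap2c (4.92) through Gata3 (2.31), Grhl2 (1.54), Gata2 (1.07), Grhl3 (0.613), Msx2 (0.391), Dlx3 (0.328), Msx1 (0.289) and Tfap2a (0.240) to Trp63 (0.0394). Neighbours in this order overlapped in range except at the steps after Grhl2, Gata2, Grhl3 and Tfap2a. With Activin A it ran from Gata3 (4.32) through Tfap2c (4.07), Grhl2 (2.17), Grhl3 (1.22), Dlx3 (0.474), Tfap2a (0.281), Msx1 (0.267), Gata2 (0.201) and Msx2 (0.163) to Trp63 (0.0534). Here the steps after Tfap2c, Grhl2, Grhl3, Dlx3 and Msx2 did not overlap. The high place of Gata3 with Activin A rests on the short transcript described above: over transcripts of at least 1000 bases Tfap2c was first in both groups, at 4.12 TPM without Activin A and 2.84 TPM with Activin A. Gata3 then had 0.922 TPM without Activin A and 0.510 TPM with Activin A. On that scale Gata2 had 0.462 TPM without Activin A and 0.0403 TPM with Activin A. Without Activin A it then lay below Grhl3 (0.613), and their ranges overlapped, as they did by CPM. The step from Gata2 to Grhl3 in the order above thus rests on shorter Gata2 transcripts. With Activin A, Grhl2 and Grhl3 also overlapped over transcripts of at least 1000 bases.

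The wider program was described from lists chosen with earlier results known, so their counts and medians describe the libraries and carry no test. Of 23 genes of epithelia and epidermis, 18 were tested, of which 12 were lower, 3 higher and 3 did not pass. Their median log2 fold change was -0.59, against 0.00 over all genes tested. Epcam, an epithelial adhesion molecule, averaged 123 ± 1.43 CPM without Activin A and 260 ± 14.4 CPM with Activin A (log2 fold change -1.08, adjusted p = 1.39e-09 by edgeR). Cldn6, a tight junction protein of early epithelia, fell by a log2 fold change of 1.03. The genes that rose were Krt8, Krt19 and Dsp, of which Krt19, a keratin of simple epithelia, averaged 99.9 ± 0.565 CPM without Activin A and 53.2 ± 3.11 CPM with Activin A (log2 fold change 0.90, adjusted p = 2.09e-08 by edgeR). Krt18, the partner of Krt8, did not pass (adjusted p = 0.287 by edgeR) but did so without the library with Activin A, replicate 3 (adjusted p = 0.00147), at a log2 fold change of -0.15. Krt5, Krt14 and Ovol1, genes of later epidermis, had 3 or fewer reads in every library.

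Of 14 genes of the placodes and plate border, 11 were tested, of which 6 were lower, 1 higher and 4 did not pass, with a median log2 fold change of -0.37. Foxi3, a forkhead factor of the preplacodal ectoderm, averaged 3.37 ± 0.423 CPM without Activin A and 10.9 ± 2.27 CPM with Activin A (log2 fold change -1.71, adjusted p = 2.26e-06 by edgeR). Foxd3, a factor of neural crest that is also expressed in the epiblast, averaged 0.588 ± 0.0774 CPM without Activin A and 3.18 ± 0.362 CPM with Activin A (log2 fold change -2.42, adjusted p = 4.86e-06 by edgeR). Sox9, a crest and placode factor, was the one that rose, at 20.5 ± 1.67 CPM without Activin A and 11.5 ± 1.56 CPM with Activin A (log2 fold change 0.84, adjusted p = 2.6e-05 by edgeR). Hes1, a Notch target, was lower by 0.39 on the log2 scale, a call lost in the fits that use transcript length.

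BMP signalling is the input known to favour surface ectoderm. Of 18 of its components and targets, 17 were tested, of which 8 were higher, 1 (Fst) was lower and 8 did not pass, with a median log2 fold change of 0.20. Id3, a direct BMP target, averaged 55.6 ± 2.36 CPM without Activin A and 12.5 ± 0.753 CPM with Activin A (log2 fold change 2.16, adjusted p = 3.51e-11 by edgeR). Id2, another, averaged 56.4 ± 1.72 CPM without Activin A and 23.1 ± 2.01 CPM with Activin A (log2 fold change 1.30, adjusted p = 4.4e-09 by edgeR). Bmp7, a ligand, averaged 78.4 ± 3.89 CPM without Activin A and 34.8 ± 2.76 CPM with Activin A (log2 fold change 1.17, adjusted p = 9.14e-09 by edgeR). Smad4, the shared partner of the receptor-regulated SMADs, did not pass, at 117 ± 2.84 CPM without Activin A and 110 ± 10.0 CPM with Activin A, but did so with replicate 3 of the Activin A group left out (log2 fold change 0.16, adjusted p = 0.00547 by edgeR).

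**Figure D4:**
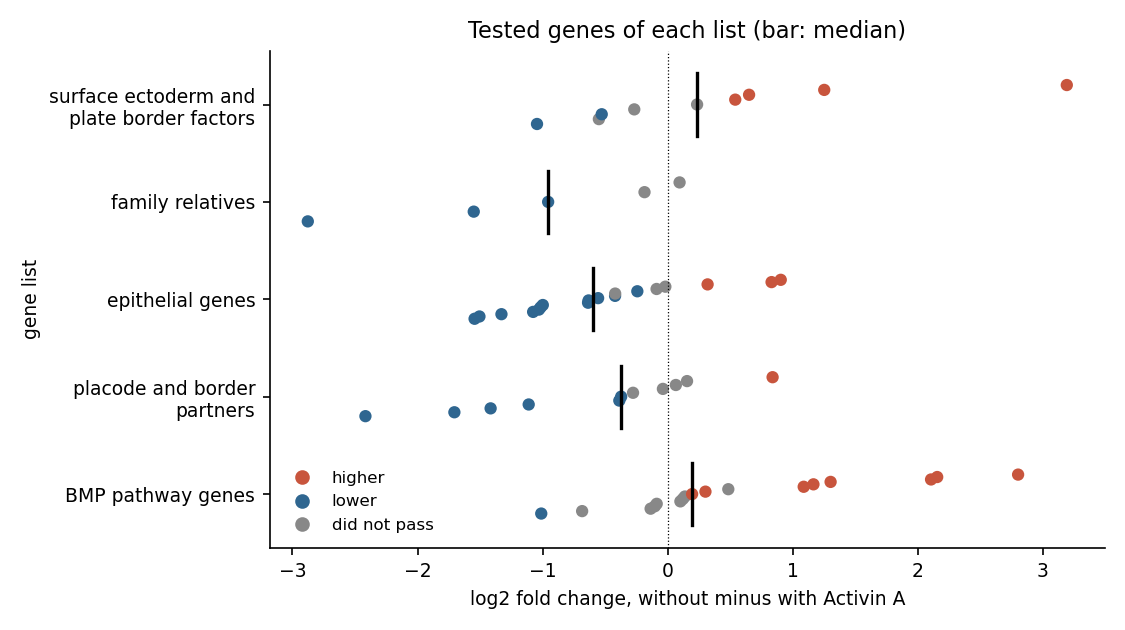
Log2 fold change, without minus with Activin A, of the tested genes of each list (points), with a bar at the list's median. The median is -0.59 for epithelial genes and -0.37 for placode and border genes, and 0.20 for BMP pathway genes.

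Of the other lineages, the trophoblast, germ cell, mesoderm and endoderm lists had low summed TPM, and the neural plate list had more. Of 10 trophoblast markers 2 were tested: Tead4 was higher and Ascl2 lower. The Tead4 call was lost with any of 4 single libraries left out (adjusted p up to 0.114 by edgeR). The Ascl2 call was lost with each of the 6 libraries left out (adjusted p of 0.0592 to 0.132 by edgeR) and in DESeq2 (adjusted p = 0.211). Tpbpa and Prl3d1 were at 0 and Cdx2, Elf5 and Esx1 had 3 or fewer reads in every library, and the summed TPM of the list was 2.46 to 2.94 without Activin A and 2.34 to 2.76 with Activin A. Of 7 germ cell markers, Kit and Dnd1 were tested and neither passed; Prdm14, Dppa3, Nanos3 and Dazl had 3 or fewer reads in every library, and the summed TPM was 3.51 to 3.71 without Activin A and 3.68 to 3.95 with Activin A. Of 8 mesoderm markers 3 were tested and 2 were higher, Kdr and Tal1, with Mesp1 at 0 and a summed TPM of 2.31 to 2.44 without Activin A and 1.19 to 1.64 with Activin A. Of 7 endoderm markers 2 were tested and both were higher, Hhex and Sox7. The Hhex call was lost with any of 4 single libraries left out (adjusted p up to 0.0771 by edgeR), and the Sox7 call with each of the 6 (adjusted p of 0.0551 to 0.140 by edgeR). This list had Foxa2 at 3 or fewer reads in every library. Their summed TPM was 2.06 to 2.16 without Activin A and 0.915 to 1.24 with Activin A. Of 10 neural plate markers 6 were tested, of which Sox1 and Lhx2 were higher, Nes and Tubb3 lower and 2 did not pass, and the summed TPM was 27.2 to 27.8 without Activin A and 38.6 to 39.9 with Activin A.

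By Pearson correlation of log2(CPM + 1) over the 6 libraries, the protein-coding genes most like Tfap2c were Pias1 (r = 0.995), Tfpi (r = 0.995) and Dlg1 (r = 0.993). For Gata3 they were Samd14 (r = 0.995), Nup214 (r = 0.994) and Hmgxb3 (r = 0.993). These were chosen as the highest among all tested protein-coding genes, over 6 points that share 2 groups, and they are given as a description. Gata3 was taken here for its mean TPM, which rests on the short transcript described above. Over transcripts of at least 1000 bases, the mean of Grhl2 was above that of Gata3 in both groups.

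**Figure D5:**
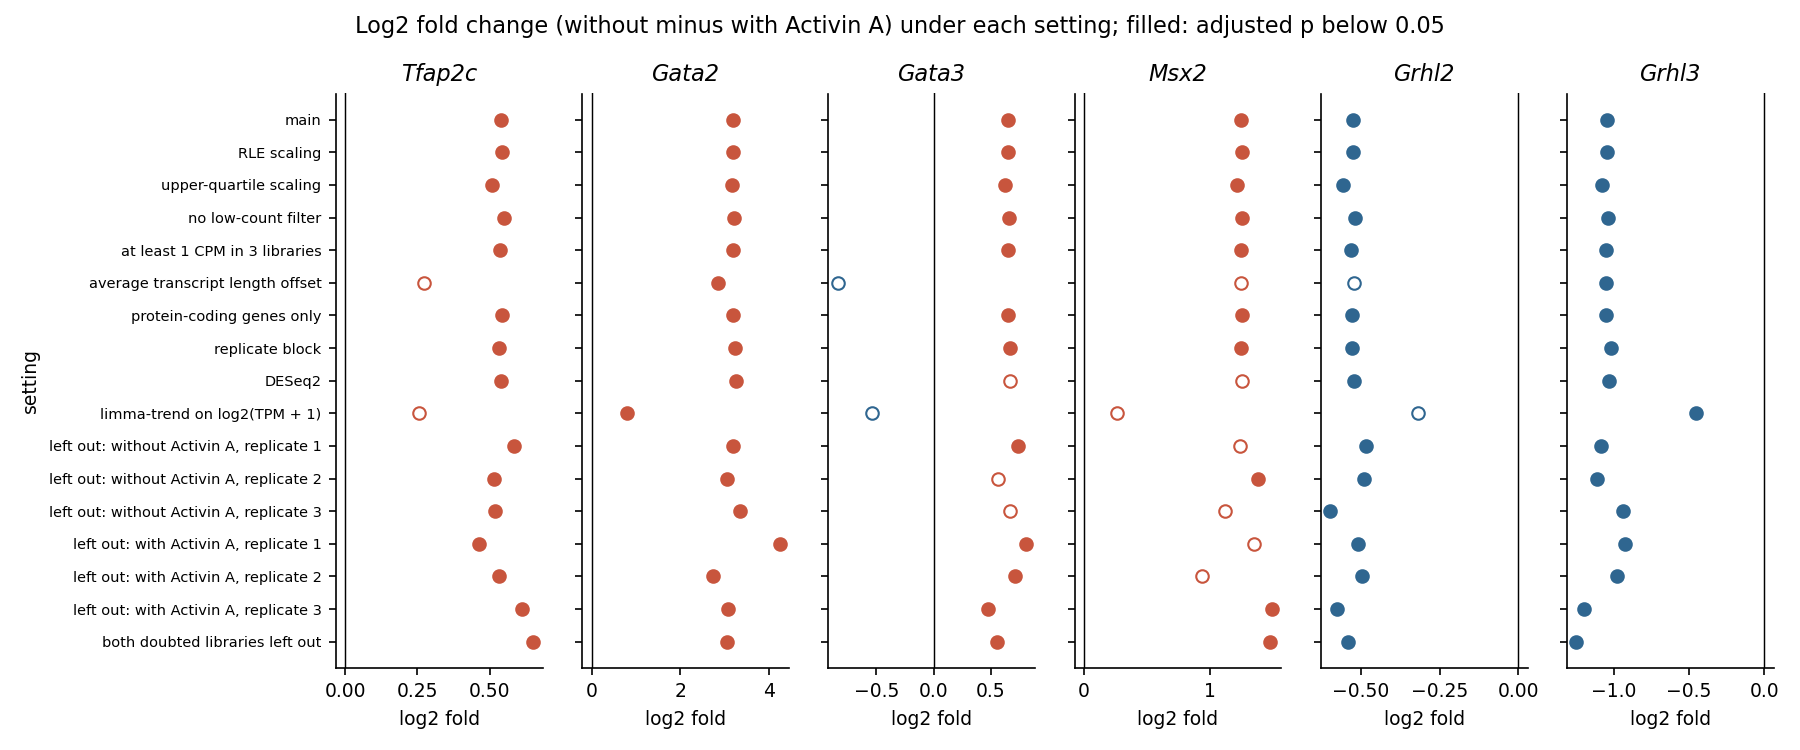
Log2 fold change, without minus with Activin A, of the 6 called factors under each processing setting, filled where the adjusted p is below 0.05, with an axis scale of its own for each gene. Gata2 and Grhl3 are filled throughout, and Gata3 lies below 0 in the fits that use transcript length, at -0.84 and -0.54.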

How the data were processed

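Polyadenylated RNA of 6 libraries was sequenced after a stranded kit, per the labels' protocols. The deposited estimated counts and TPM values per transcript are in the layout salmon writes, per the file headers. Salmon, edgeR and DESeq2 stand in the submitters' processing notes, with no version given. The sources used here do not give the authors' annotation or strand setting. Of 133618 transcripts, 133399 matched GENCODE M21 (GRCm38) with the version ignored. The 219 others, with 0.131% to 0.149% of reads, were left out. Estimated counts were summed per gene and rounded, and TPM was summed per gene. The TPM over transcripts of at least 1000 bases was an alternative added after the data were seen.

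Groups were compared as without minus with Activin A in edgeR 4.0.16 (R 4.3.3) with TMM, filterByExpr (minimum count 10, minimum total 15) and the robust quasi-likelihood test, checked on simulated data. SE is the log2 fold change divided by the root of F. Alternatives used DESeq2 1.42.0, limma 3.58.1 on log2(TPM + 1), other scalings and filters, a transcript length offset, protein-coding genes only, a replicate block and each library left out. No 2 replicates agreed within sampling noise (chi-square over degrees of freedom of 1.82 to 7.20). Depth was 9946521 to 16350923 estimated reads, and counting intervals cover counting error only. The members and lists were chosen with earlier results of these data known. Named are all members, tested relatives, of each other list the 3 called genes with the smallest p-values and the 2 with the highest TPM, and for the 2 called members of highest TPM the 3 genes most like each. Some marker genes that the rule takes are given only in the counts of their lists. Genes outside the rule were named after their values were seen: Krt8, Dsp, Sox2, Lhx2, Fst, and those at or near 0. Promoters came from RefSeq (GRCm38.p6), where 6 of the 10 members matched.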

Additional observations from a re-analysis of the deposited data

How the results depend on the processing

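Over all genes, 4505 were called (2155 higher, 2350 lower without Activin A). With a transcript length offset 2050 were called (937 higher, 1113 lower), and by limma-trend on log2(TPM + 1) 1559 (778 higher, 781 lower). Under each of these 2 settings 2 members were called, 1 higher (Gata2) and 1 lower (Grhl3). DESeq2 called 3365 of the 15448 genes and 4 members, 2 higher (Gata2 and Tfap2c) and 2 lower (Grhl2 and Grhl3). With 1 library left out at a time, 3246 to 5689 genes were called, of the members 4 to 6, and 2 to 4 as higher. Gata3 reversed to -0.836 with the length offset and -0.541 by limma-trend. Msx1 (range -0.133 to 0.618) and Grhl1 (range -0.428 to 0.169) changed sign with 1 library left out, and neither passed the test. The silence limit of 10 reads in place of 3 gave 1 silent member. Of the 10 members, 6 without and 3 with Activin A kept their place in the TPM order by CPM, and by TPM of transcripts of at least 1000 bases 6 without and 1 with Activin A. Same-numbered replicates did not deviate together (r of -0.025, -0.052 and -0.057). What the numbers mark is not stated, and these values cannot show whether same-numbered libraries were handled together. A replicate block gave 4422 calls and 6 members. It ended the calls of Ascl2 (adjusted p = 0.0576) and Sox7 (adjusted p = 0.0518), both by edgeR. Over the named genes, 744 alternative values kept side and sign, 75 lost the call, 4 gained it and 4 reversed; the causes were not tested. Depth limits the members with under 20 reads in a library: Tfap2a, Msx1, Msx2, Dlx3 and Trp63, Gata2 with Activin A, and Gata3 in replicate 3 with Activin A.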

Other observations

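Because Kdr, Tal1, Hhex and Sox7 were higher without Activin A, 18 genes of blood and endothelium, in which Gata2 also acts, were listed after those values were seen, so their counts are a description. Of the 13 tested, 7 were higher, 1 lower and 5 did not pass, with a median log2 fold change of 0.66. The 4 genes that prompted the list are among the 7. Of the other 9 tested genes 3 were higher, with a median log2 fold change of 0.23, against 14.0% higher among all genes tested. Kdr, the endothelial VEGF receptor, averaged 7.31 ± 0.415 CPM without Activin A and 1.62 ± 0.336 CPM with Activin A (SD, n = 3 each; log2 fold change 2.18, adjusted p = 2.41e-07 by edgeR). Tal1, a blood progenitor factor, averaged 3.05 ± 0.0650 CPM without Activin A and 1.34 ± 0.453 CPM with Activin A (log2 fold change 1.21, adjusted p = 0.00188 by edgeR). Flt1, Tek and Sox18 were the other genes higher, beside Hhex and Sox7. Lmo2, a partner of Tal1, was the one that fell, at 2.29 ± 0.102 CPM without Activin A and 3.87 ± 0.256 CPM with Activin A (log2 fold change -0.76, adjusted p = 0.00377 by edgeR). Gata1, Cdh5 and Erg, which define red cells and endothelium, were too low to be tested, and Gata1 averaged 0.616 ± 0.271 CPM without Activin A and 0.168 ± 0.0614 CPM with Activin A.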
